A study of Mus musculus with 2 samples.

Results

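In the mouse gastrocnemius, 3744 of the 68349 DNase I hypersensitive sites found in both libraries were intergenic sites 1 to 10 kb upstream of a gene. They were chosen by position alone: the peaks of the strict list of each library were merged where they overlapped by at least 1 bp, and merged sites with a peak of both libraries were kept. A member lay wholly outside every protein-coding gene body, and its midpoint lay 1 to 10 kb upstream of the nearest protein-coding transcription start site. Members were 5.48% of the shared sites. For comparison, 21903 shared sites lay within 1 kb of a start (promoter sites), 6115 lay inside a gene 1 to 10 kb downstream of its start, and 7840 were intergenic and 10 to 100 kb upstream of the nearest start.

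DNase-seq reads out the places where the enzyme DNase I can cut chromatin. Both libraries came from gastrocnemius, a calf muscle, of 14-day-old females of the F1 hybrid strain B6CASTF1/J, whose parents are C57BL/6J and CAST/EiJ. The labels call the libraries biological replicates 1 and 2 of a single group, give them separate biosamples under the same donor record, and note 3x females for each, without saying whether animals were pooled. No treatment, genotype or second condition was present, so there is no comparison between conditions, and every value below describes these 2 libraries. Only the label of replicate 2 names sequencers, and an effect of the sequencing run cannot be told apart from one of the replicate. Promoters of muscle marker genes were open: the site at Ckm, muscle creatine kinase, reached 13.1 and 8.99 in replicates 1 and 2, and the site at Des, desmin, 10.1 and 8.80. Pax7, Chrng, Chrnd, Myh1, Myh2 and Myh4 had no shared promoter site.

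Sequence just upstream of a promoter holds many of the enhancers, insulators and unannotated promoters that act on the nearby gene. In skeletal muscle, the myogenic factors MYOD, MYOG, MYF5 and MRF4 bind E-boxes as dimers with E proteins, and several well-studied muscle enhancers are short upstream elements of this kind. CTCF binds a long motif and holds chromatin loops and boundaries. SP and KLF factors and ETS factors are typical of promoters in CpG islands.

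The sequences of 12 members are shown because the results below return to them. The first 6 belong to muscle genes: the calcium pump of fast fibres (Atp2a1), the atrophy ubiquitin ligase MuRF1 (Trim63), fast troponin T (Tnnt3), a fast myosin heavy chain (Myh2), the acetylcholine receptor alpha subunit (Chrna1) and the myogenic factor Myod1. Next come a dystrophin complex gene (Sgca), a Notch receptor gene (Notch3) and the clock repressor REV-ERB alpha (Nr1d1). The last 3 are the strongest member (Bahcc1), a strong member with several motif kinds (Sema3b, a semaphorin gene) and the member with the lowest replicate ratio (I830077J02Rik). Each is the whole merged site on the plus strand of mm10, taken from the reference genome. The mice carried a CAST/EiJ chromosome set too, whose bases may differ. Capitals mark every match to 1 of the 29 motifs searched.
Atp2a1 site, chr7:126464241-126464400: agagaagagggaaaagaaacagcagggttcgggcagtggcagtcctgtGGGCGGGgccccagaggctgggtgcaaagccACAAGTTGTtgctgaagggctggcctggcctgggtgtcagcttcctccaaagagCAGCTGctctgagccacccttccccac
Trim63 site, chr4:134307621-134307780: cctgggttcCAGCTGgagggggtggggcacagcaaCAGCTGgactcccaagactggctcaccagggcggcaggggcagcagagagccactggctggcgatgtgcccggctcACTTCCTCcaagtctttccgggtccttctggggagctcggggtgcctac
Tnnt3 site, chr7:142496301-142496500: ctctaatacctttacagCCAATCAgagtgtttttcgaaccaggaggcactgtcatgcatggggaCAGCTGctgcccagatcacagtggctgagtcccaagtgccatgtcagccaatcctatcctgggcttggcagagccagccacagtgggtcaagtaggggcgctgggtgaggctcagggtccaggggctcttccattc
Myh2 site, chr11:67169521-67169720: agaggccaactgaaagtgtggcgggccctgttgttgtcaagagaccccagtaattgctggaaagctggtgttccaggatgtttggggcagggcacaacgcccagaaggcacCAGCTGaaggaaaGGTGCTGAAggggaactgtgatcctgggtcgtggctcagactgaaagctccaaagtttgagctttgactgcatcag
Chrna1 site, chr2:73584681-73584860: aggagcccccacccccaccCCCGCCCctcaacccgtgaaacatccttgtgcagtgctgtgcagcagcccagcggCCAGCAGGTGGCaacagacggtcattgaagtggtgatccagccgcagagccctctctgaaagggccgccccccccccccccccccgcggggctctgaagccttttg
Myod1 site, chr7:46371201-46371480: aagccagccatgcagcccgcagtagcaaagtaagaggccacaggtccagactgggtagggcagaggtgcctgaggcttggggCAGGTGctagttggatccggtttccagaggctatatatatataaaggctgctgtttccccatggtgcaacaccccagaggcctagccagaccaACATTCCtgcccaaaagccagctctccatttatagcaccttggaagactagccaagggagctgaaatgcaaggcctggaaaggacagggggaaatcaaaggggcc
Sgca site, chr11:94979041-94979220: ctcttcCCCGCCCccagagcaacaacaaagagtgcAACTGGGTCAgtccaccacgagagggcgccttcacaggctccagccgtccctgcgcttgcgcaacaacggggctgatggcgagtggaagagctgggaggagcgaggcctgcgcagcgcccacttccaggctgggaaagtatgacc
Notch3 site, chr17:32173281-32173480: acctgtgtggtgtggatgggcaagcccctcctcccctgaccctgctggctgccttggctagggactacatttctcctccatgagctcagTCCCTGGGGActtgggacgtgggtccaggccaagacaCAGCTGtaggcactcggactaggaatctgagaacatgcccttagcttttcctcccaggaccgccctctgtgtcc
Nr1d1 site, chr11:98783401-98783640: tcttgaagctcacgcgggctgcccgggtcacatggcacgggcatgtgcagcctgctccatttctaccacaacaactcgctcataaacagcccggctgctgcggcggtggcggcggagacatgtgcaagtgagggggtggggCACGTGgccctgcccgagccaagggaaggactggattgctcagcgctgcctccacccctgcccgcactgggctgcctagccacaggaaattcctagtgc
Bahcc1 site, chr11:120231581-120231740: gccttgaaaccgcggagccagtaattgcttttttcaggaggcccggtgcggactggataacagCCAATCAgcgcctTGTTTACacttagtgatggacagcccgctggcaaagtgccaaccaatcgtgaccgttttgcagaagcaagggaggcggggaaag
Sema3b site, chr9:107612721-107612940: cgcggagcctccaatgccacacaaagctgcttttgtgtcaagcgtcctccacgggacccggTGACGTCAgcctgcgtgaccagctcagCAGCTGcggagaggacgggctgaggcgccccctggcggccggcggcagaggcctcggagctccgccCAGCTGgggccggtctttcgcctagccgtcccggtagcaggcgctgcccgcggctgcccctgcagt
I830077J02Rik site, chr3:105935181-105935360: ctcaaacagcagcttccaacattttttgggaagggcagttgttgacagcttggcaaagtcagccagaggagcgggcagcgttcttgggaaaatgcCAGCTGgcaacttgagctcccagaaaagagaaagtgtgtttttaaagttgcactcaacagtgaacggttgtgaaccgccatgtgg

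In these 12 sequences 26 motif matches are in capitals, and 15 of the 26 lay under a footprint of both libraries. A footprint is a short stretch of reduced cutting inside an open site. A match counted as under a footprint, or footprinted, if any of its bases overlapped one. Each library was checked separately, so the footprints of both need not overlap each other. The same rule was used for placements. Over the windows of all members, 27.2% of 6 bp placements and 34.9% of 12 bp placements lay so. The 12 sites were picked, and the 15 include the Chrna1 CAGGTG inside the CTCF core, so the count says nothing about members in general. The Atp2a1 sequence has CAGCTG at base 134 and the SP/KLF motif GGGCGGG at base 49. Of these, the SP/KLF match was under a footprint in both libraries and the CAGCTG was under none. In the Trim63 sequence there are CAGCTG copies at bases 10 and 36, and the copy at base 10 was under footprints of both. For Chrna1 the CTCF core starts at base 75, encloses the CAGGTG at base 79, and was footprinted in both libraries. In the Nr1d1 site, CACGTG, the E-box of the clock factors CLOCK and BMAL1, lies at base 142 under footprints of both libraries. Over all members, 28.3% of 159 CACGTG matches (21.9 to 35.8%) lay so, near the 27.2% of any 6 bp placement. Which factor binds the site was not tested. The Notch3 site has an EBF motif at base 90 with a footprint in both libraries and a CAGCTG at base 127 with none. A match to a motif of the ROR and REV-ERB receptors at base 36 of the Sgca site was footprinted in both, as was the SP/KLF match at base 7. Over all members, 5 of 29 matches to the ROR and REV-ERB motif (17.2%, 7.60 to 34.5%) were, against 32.3% of any 10 bp placement.

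The members were mostly narrow sites of moderate signal. Peak signal is a value that the authors gave to each peak, in units not given in the sources used here. Its median over members was 2.08 in replicate 1 and 1.87 in replicate 2, so 1.98 ± 0.15 (SD, n = 2). The middle 50% of members ran from 1.33 to 3.57 in replicate 1 and from 1.18 to 3.15 in replicate 2. Promoter sites were stronger, with medians of 3.94 and 3.68. The 1 to 10 kb sites inside genes had medians of 1.85 and 1.67, and intergenic sites beyond 10 kb had 1.63 and 1.44. In both libraries the order was therefore promoter, members, sites inside genes, farther sites. The gap between members and the sites inside genes was close to the gap between the libraries. All shared sites had medians of 1.96 and 1.77, so the lower level of replicate 2 was not particular to members. Median width was 180 bp for members, for sites inside genes and for farther sites, and 220 bp for promoter sites.

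The base composition of members was far from that of promoters. Over 150 bp around the midpoint, median GC content was 55.3% for members, 66.0% for promoter sites and 54.0% for farther sites. The ratio of observed to expected CpG, which is high in CpG islands, had a median of 0.29 in members and 0.79 in promoter sites. It was at least 0.6 in 16.8% of members against 73.2% of promoter sites and 10.5% of farther sites. Intervals below are 95% Wilson intervals and cover counting error over sites only. GC content and signal were related weakly across members (Spearman 0.32, n = 3744 sites, all from the same libraries).

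The density of members fell away from the start. Sequence in which a midpoint would qualify added up to 123 Mb, or 4.65% of the genome without gaps, and held 30.4 members per Mb. From 1 to 2 kb there were 737 members at 44.2 per Mb. The next kilobase held 31.5 per Mb and the last, from 9 to 10 kb, held 23.7 per Mb. Intergenic sequence 10 to 100 kb upstream held 21.2 shared sites per Mb, and genic sequence 1 to 10 kb downstream of a start held 33.4. Promoter sequence held 339 per Mb. The first kilobase of the window was thus the densest, and each of the 8 later ones held fewer sites per Mb.

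**Figure D1:**
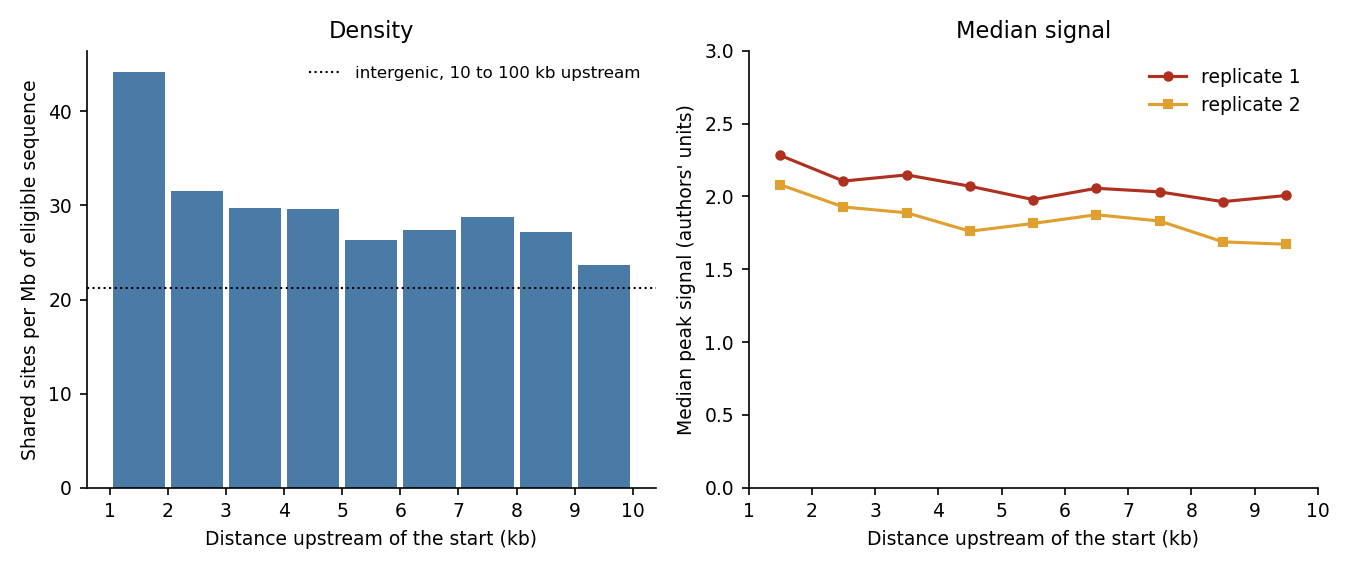
Left, shared sites per Mb of eligible intergenic sequence (y) in 1 kb steps upstream of the nearest protein-coding start (x), with the 10 to 100 kb level of 21.2 per Mb dotted. Right, median deposited peak signal (y) over the same steps in replicate 1 (circles) and replicate 2 (squares), which falls from 2.28 and 2.08 at 1 to 2 kb to 2.01 and 1.67 at 9 to 10 kb.

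Signal changed little along the same 9 kb. Its median was 2.28 in replicate 1 and 2.08 in replicate 2 at 1 to 2 kb, and 2.01 and 1.67 at 9 to 10 kb. Spearman's correlation of signal with distance to the start was -0.07 across members. Neither boundary of the window was a step: the 318 shared intergenic sites at 750 to 1000 bp, just outside, had medians of 2.18 and 1.95, and the 264 members in the first 250 bp inside had 2.26 and 2.02. At the far edge, the 264 members at 9 to 10 kb (2.01 and 1.67) stood beside 284 sites at 10 to 11 kb (1.99 and 1.78).

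The open stretch around a member was short and seldom reached its gene's start. The deposited per-base files list the bases whose cut rate had a q-value under 0.05. The run of listed bases through a member's midpoint had a median length of 298 bp in replicate 1 and 282 bp in replicate 2. Promoter sites had 865 and 858 bp, farther intergenic sites 296 and 282 bp, and sites inside genes 307 and 292 bp. Short runs were thus not particular to members. The run through the midpoint reached the gene's start at 66 members (1.76%) in replicate 1 and 64 (1.71%) in replicate 2. At 1000 bp from the midpoint on the side of the gene, 15.7% of members had a listed base in replicate 1, and 6.92% on the far side. Among the 2507 members more than 3 kb upstream, both sides were alike, at 6.94% and 6.66%.

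**Figure D2:**
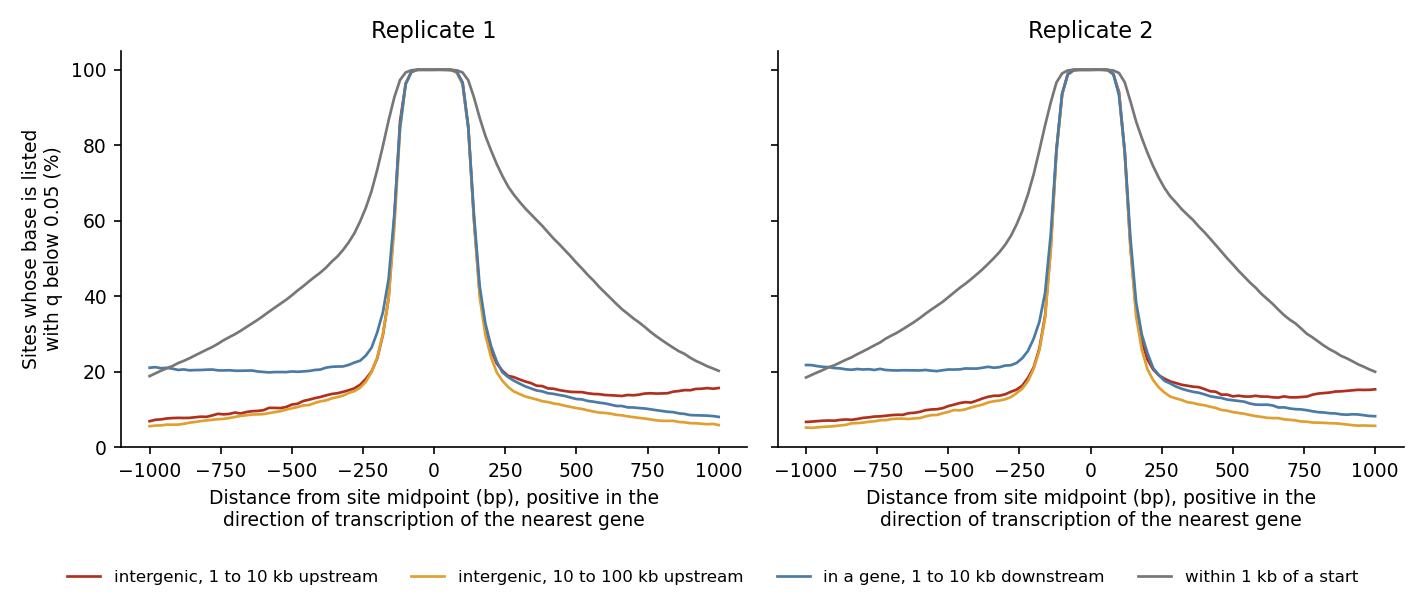
Share of sites whose base is listed with a q-value below 0.05 (y, percent) by distance from the midpoint in bp (x, positive in the direction of transcription of the nearest gene), in replicate 1 (left) and replicate 2 (right). Away from the gene members (red) end at 6.92% in replicate 1, above the 5.59% of farther intergenic sites (yellow), and on the side of the gene they reach 15.7% in replicate 1 and 15.4% in replicate 2 at 1000 bp.

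The strongest members reached the level of strong promoters. The member 1.287 kb upstream of Bahcc1, a gene for a chromatin protein, had the highest signal, at 33.9 in replicate 1 and 25.6 in replicate 2. Its gene's own promoter site was stronger still, at 54.6 and 46.8. The second, 6.519 kb upstream of Tlcd2, had 32.5 and 24.7, against 4.97 and 4.73 at the Tlcd2 promoter. That site lay 21 bp from the annotated start of Mir22hg, the host transcript of the microRNA miR-22. The other 8 of the strongest 10 were upstream of Trappc9, Kmt2e, Spen, Ptma, Phf2, Sema3b, Cpeb4 and Sos1, with 24.2 to 29.8 in replicate 1 and 19.4 to 25.2 in replicate 2. Phf2, a histone demethylase gene, had a member at 25.6 and 22.1, against less than 2 at its promoter site in both libraries. For Sema3b the member had 26.2 and 21.2 and the promoter site 2.67 and 2.53.

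Several of these strong members lay at starts that the protein-coding transcripts of GENCODE do not include. Of the strongest 10, 5 were within 1 kb of a RefSeq mRNA start or of another GENCODE start. The Cpeb4 member lay 150 bp upstream of a RefSeq start of Cpeb4, a gene for an RNA-binding protein of translation control. The Kmt2e member lay 16 bp upstream of a RefSeq start of the same gene. Most of the RefSeq starts near members were not curated ones: 266 members lay within 1 kb of any RefSeq mRNA start and 70 (1.87%) within 1 kb of a curated one. Among the strongest 100 members 41 were near a RefSeq or other GENCODE start, and among all members 544 were (14.5%, 13.4 to 15.7%). When members were ranked by signal and divided into 4 equal sets, their share was 11.6% in the weakest set and 20.6% in the strongest. Of GENCODE's own other starts, 348 members (9.29%) had one within 1 kb, 123 of them of long intergenic non-coding RNA genes. The share was lower than the 26.8% of all shared sites and the 15.7% of sites inside genes, and stood beside 7.82% of farther sites.

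Members near another annotated start were stronger and richer in promoter motifs than the rest. Their median signal was 2.50 in replicate 1 and 2.29 in replicate 2, against 2.03 and 1.81 for the 3200 others. The SP/KLF motif was in 16.4% of them (13.5 to 19.7%) and in 6.63% of the others (5.81 to 7.54%). Observed to expected CpG was at least 0.6 in 35.3% against 13.6%. By contrast the CTCF core was in 7.35% (5.45 to 9.86%) against 11.7% (10.7 to 12.9%). The CAGCTG share was 16.5% (13.7 to 19.9%) against 20.4% (19.0 to 21.8%), intervals that overlap.

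The libraries ranked the members alike. Every member had to have a strict peak in both libraries, so sites called in a single library could not enter. Agreement over members is therefore partly set by that choice. Across the 3744 members, all read from the same pair of libraries, Spearman's correlation between replicates was 0.95, and Pearson's, on log2 signal, was 0.96. The median log2 ratio of replicate 2 to replicate 1 was -0.14 over all shared sites, and ratios were centred on that median. After centring, 5 members were past 2-fold higher in replicate 2, which is 0.134% of members beside 0.162% of all shared sites. In the other direction 9 members were past 2-fold lower, 0.240% beside 0.211%. Those shares are near the background of all shared sites.

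**Figure D3:**
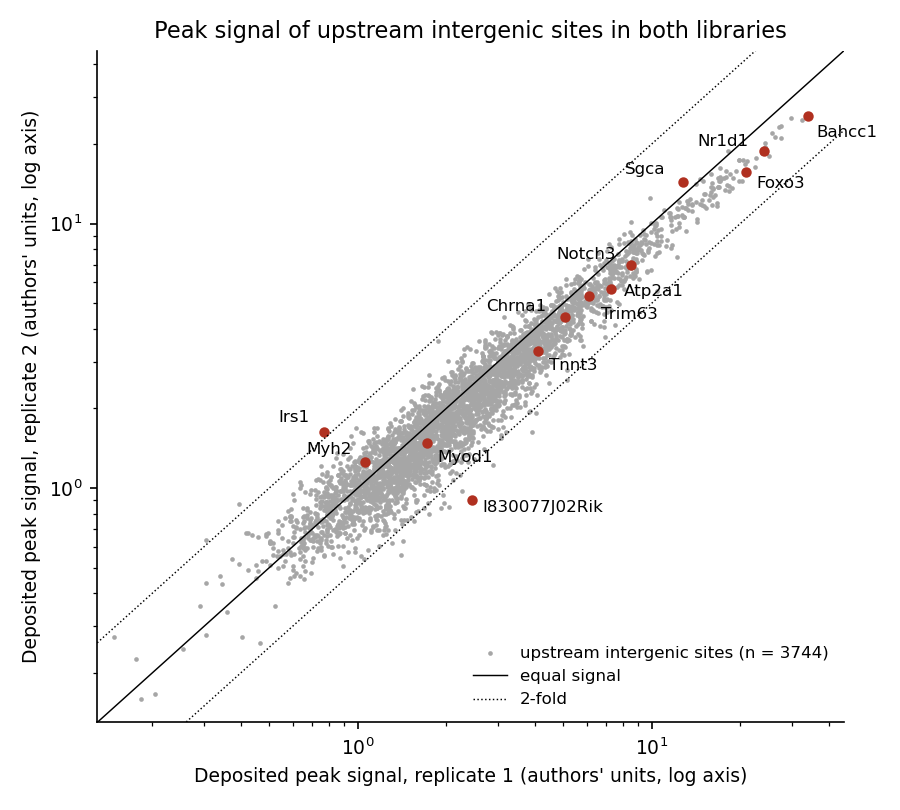
Deposited peak signal of each of the 3744 members in replicate 1 (x) and replicate 2 (y), both on log axes in the authors' units, with the line of equal signal, dotted lines at 2-fold, and named sites in red. Points follow the line with a Spearman correlation of 0.95, and the strongest sites fall a little below it.

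The lowest centred log2 ratio was -1.29, at the site 2.606 kb upstream of I830077J02Rik, where the signal was 2.44 in replicate 1 and 0.90 in replicate 2. Vps26a, a retromer subunit gene, followed with 1.40 and 0.56, and Tmem50a had 3.90 and 1.64. The highest ratio was 1.28, 9.638 kb upstream of Ccdc152, from 0.40 to 0.87. Upstream of Irs1, the insulin receptor substrate, the signal was 0.77 in replicate 1 and 1.62 in replicate 2 (centred log2 ratio 1.22). With 1 library per side, none of these ratios has a replicate check.

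CAGCTG was the commonest E-box form in members. Motifs were sought on both strands in 150 bp around the midpoint. CAGCTG, the E-box that MYOD and MYOG prefer, was in 743 members (19.8%, 18.6 to 21.2%) beside 20.8% of all shared sites. Windows of the same length 1000 bp to either side of members, touching no permissive peak of either library, held it in 6.87% of 6584. The ratio of members to flanks was 2.89 for CAGCTG and 2.08 for CACGTG. It was 1.05 for CAGGTG, which factors such as ZEB and SNAIL also bind, and 0.32 for CATATG. Flanks had a lower median GC content (46.7%) than members, and the part of composition in these ratios was not tested.

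Farther sites and sites inside genes held CAGCTG more often. Its share was 24.8% (23.8 to 25.7%) in intergenic sites beyond 10 kb, 23.7% (22.7 to 24.8%) inside genes and 11.3% (10.8 to 11.7%) at promoters. Within the members it was 16.0% at 1 to 2 kb, 19.4% at 2 to 5 kb and 22.0% at 5 to 10 kb. It did not follow the signal: in the 4 sets from weakest to strongest the share was 19.2, 20.9, 19.7 and 19.6%. Members with CAGCTG had median signals of 2.09 and 1.85, and those without had 2.08 and 1.88.

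The CTCF core was common in members and almost absent from the windows beside them. It was in 415 members (11.1%, 10.1 to 12.1%), beside 6.35% of all shared sites and 4 of 6584 flanking windows (0.06%). The share was 9.30% in farther intergenic sites, 7.42% in sites inside genes and 1.13% at promoters. By signal it was 6.62% in the weakest of the 4 sets, 9.29 and 14.7% in the middle ones and 13.7% in the strongest. Members whose nearest gene had no open promoter (no shared site within 1 kb of a start) held it in 15.3%, and those whose gene had one in 9.87%. The core pointed in the direction of the gene in 54.0% (49.2 to 58.7%), an interval that includes an even split of directions.

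Motifs typical of promoters were rarer in members than at promoters. The SP/KLF motif was in 8.04% of members, 34.7% of promoter sites, 6.15% of farther sites and 15.1% of all shared sites. For the ETS motif CCGGAAG the shares were 2.51% in members, 9.62% at promoters, 1.70% farther out and 4.22% over all shared sites. Members and farther sites held the AP-1 motif TGACTCA more often than promoters, at 5.74, 6.96 and 1.92%, and its share was 2.23% in flanks and 4.84% over all shared sites. The TEAD motif, CAGGTG and the motif of the glucocorticoid and androgen receptors were in 2.86, 12.6 and 4.14% of members in 2.00, 12.1 and 4.77% of flanks, and in 2.31, 10.97 and 3.28% of all shared sites. The muscle motifs MEF2, SRF and MEF3 were rare as written, in 0.43, 0.51 and 0.32% of members and 0.44, 0.61 and 0.26% of all shared sites.

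**Figure D4:**
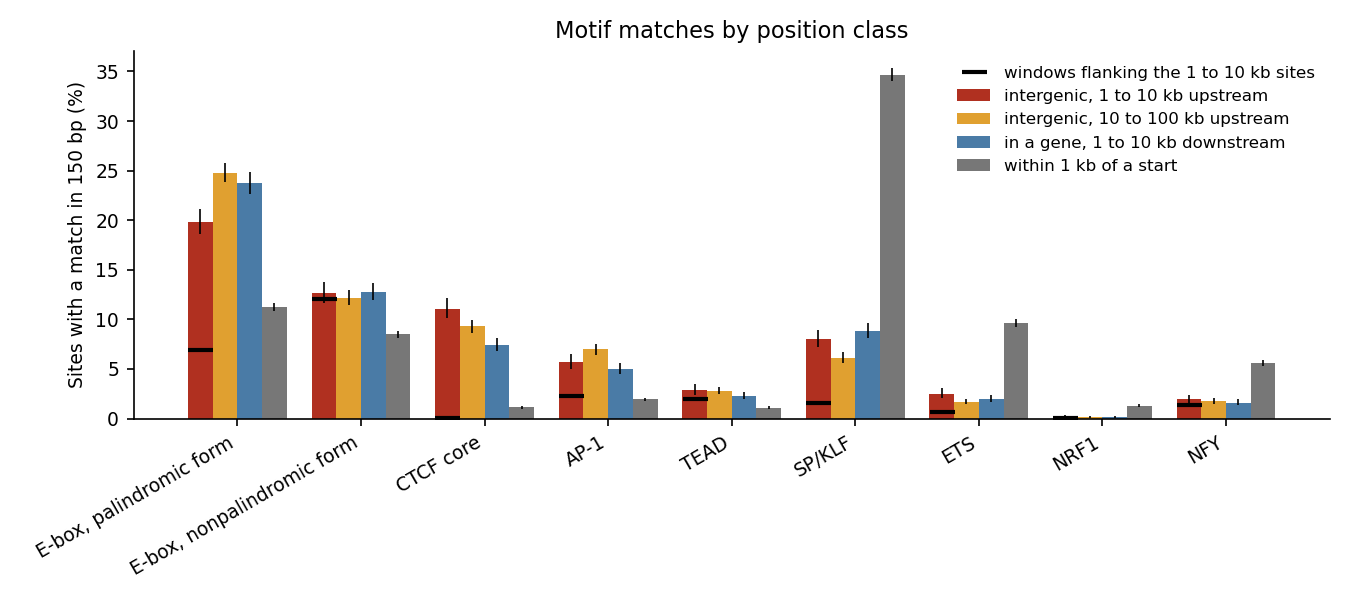
Share of sites with a motif match in 150 bp (y, percent) for 9 motifs (x) in members, farther intergenic sites, sites inside genes and promoter sites, with 95% Wilson intervals as error bars and the share in windows flanking members as black dashes. The palindromic E-box is CAGCTG (19.8% of members, 6.87% of flanks), the nonpalindromic one CAGGTG, and the CTCF core is in 11.1% of members.

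Nearly all members held a footprint in both libraries, and the motifs under them differed. Footprints of both libraries were present in 3586 members (95.8%, 95.1 to 96.4%), beside 92.3% of all shared sites and 85.6% of promoter sites. Farther intergenic sites held them in 95.1% (94.6 to 95.5%) and sites inside genes in 93.7%, so the high share was not particular to members. There were on average 3.11 footprints per member in replicate 1 and 2.86 in replicate 2. Of 416 CTCF core matches in members, 412 (99.0%) lay under a footprint of both libraries, against 34.9% for any 12 bp placement in the same windows. SP/KLF matches did so in 58.0% of 357 (52.8 to 63.0%), against 28.5% for any 7 bp. EBF matches did in 27 of 36 (58.9 to 86.2%), and matches to the CREB motif in 73.9% of 23 (53.5 to 87.5%).

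CAGCTG was no more often footprinted than any other 6 bases. Of its 876 matches in members, 27.3% (24.4 to 30.3%) lay under a footprint of both libraries, and of all 6 bp placements 27.2% did. AP-1 matches were under both in 20.3% of 232 (15.6 to 25.9%), below the 28.5% of any 7 bp. CAGGTG reached 43.4% of 512, but 57 of these matches were inside a CTCF core. Those 57 were footprinted in 98.2%. The other 455 were in 36.5% (32.2 to 41.0%), still above the 27.2% of any 6 bp placement.

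Of 21853 protein-coding genes with an annotated protein-coding start, 2803 were nearest to at least 1 member (12.8%). Most had a single one: 2150 genes had 1, 475 had 2, 112 had 3, 40 had 4 and 26 had 5 or more. Tnrc18, which encodes a chromatin-binding protein, had 9 members from 1.188 to 5.998 kb upstream, and its strongest had 15.2 in replicate 1 and 12.9 in replicate 2. Col1a1, the collagen I gene of fibroblasts, had 7, as did Irf2bpl, Actg1 and Aurkb. Kdm6b, a histone H3K27 demethylase gene, had 6 members up to 18.9 and 14.8 and no shared site within 1 kb of its annotated start.

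Genes with a member also had an open promoter more often. A shared site within 1 kb of a start was present at 76.1% (74.4 to 77.6%) of genes with a member and at 60.6% (59.9 to 61.2%) of those without, beside 62.5% of all. The level of the promoter did not follow that of the member: Spearman's correlation between the strongest member and the promoter site was 0.05 across the 2132 genes with both. In 479 of these (22.5%, 20.7 to 24.3%) the member was the stronger. Genes without an open promoter numbered 671 among those with a member.

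Among gene lists, the share with a member ranged from 6.67 to 66.7% and is read against 12.8% of all genes. Of 233 genes in the muscle lists 76 had a member (32.6%), and of 185 in the lists of other cell types 39 had (21.1%). Muscle lists had more open promoters too: 206 of 233 genes against 89 of 185. The lists also differed in eligible intergenic sequence, from a median of 2.85 kb per gene for fast-fibre genes to 9 kb for the atrophy and growth list, against 8.55 kb for all genes. Per Mb of it, both of these lists held 149.7 members, clock genes held 103 and housekeeping genes 109, against 30.4 over all genes. The part of promoter state in these shares was not tested. Since lists hold 10 to 25 genes each, their intervals were wide.

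**Figure D5:**
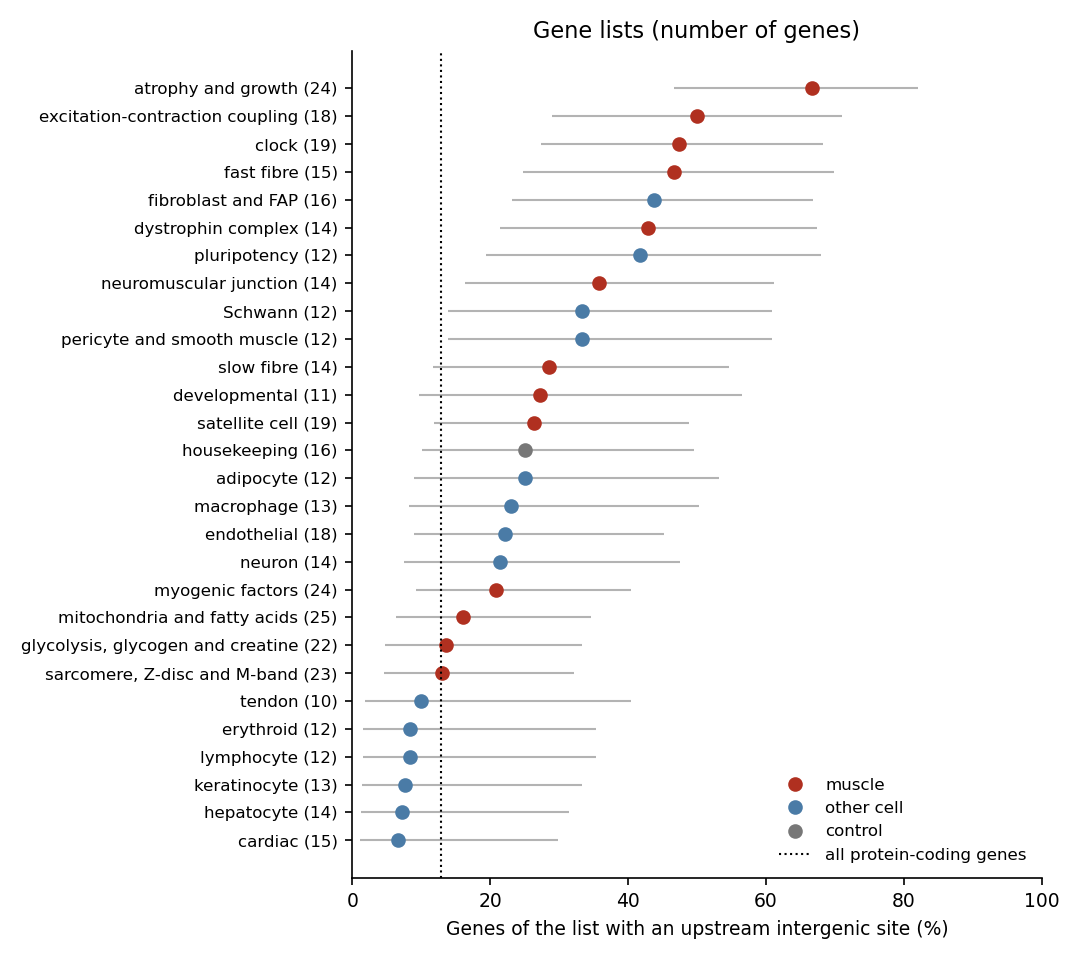
Share of the genes of each list that had an upstream intergenic site (x, percent; the number of genes in parentheses), with 95% Wilson intervals as lines and the share of all protein-coding genes, 12.8%, dotted. The atrophy and growth list stands highest at 66.7%, and cardiac genes lowest at 6.67%.

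The atrophy and growth list, genes that set muscle mass, had members at 16 of 24 genes (66.7%, 46.7 to 82.0%), 28 members in all. The strongest stood 1.005 kb upstream of Foxo3, a transcription factor of the atrophy programme, with 20.9 in replicate 1 and 15.7 in replicate 2. It was just past the 1 kb limit of promoter sites. Its observed to expected CpG was 1.26, against a median of 0.29 over members, and the Foxo3 promoter site had 9.12 and 7.86. Another Foxo3 member followed at 1.415 kb with 10.7 and 9.55. Foxo1 had 4 members, of which the strongest, at 5.736 kb, had 3.75 and 3.66. The Trim63 site printed above, 7.420 kb upstream, had 6.10 and 5.31, higher than the gene's promoter site at 2.49 and 2.17. Fkbp5, a glucocorticoid-induced chaperone gene, had 10.4 and 5.58 at 5.676 kb, beside the start of a non-coding gene, with a match to the glucocorticoid receptor motif. Mstn, which encodes the growth inhibitor myostatin, had 1.43 and 1.13 at 8.380 kb and no shared promoter site.

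Fast-fibre and excitation-contraction genes had members at 7 of 15 and 9 of 18 genes. Atp2a1 and Casq1 are in both lists, so these shares are not separate. Atp2a1 had 3 members within 3 kb: 7.29 and 5.64 at 1.212 kb, 4.62 and 4.92 at 1.912 kb, and 3.13 and 3.23 at 2.745 kb. The first and the third hold CAGCTG and the second CAGGTG. The promoter site had 5.81 and 4.67, so the first member was above it in both libraries and the third below it in both. Tnnt3 had 4.11 and 3.30 at 2.436 kb, with CAGCTG. Of the myosin genes, Myh2 had a weak member at 1.407 kb (1.06 and 1.26) and Myh4 one at 2.205 kb (1.58 and 1.86), and neither had a shared promoter site. For Ryr1, the calcium release channel, the member had 1.99 and 1.62.

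Shares of sarcomere and metabolic genes with a member were near the 12.8% of all genes. Of 23 genes of the sarcomere, Z-disc and M-band 3 had a member, with 3.04 and 2.54 at the Flnc site 2.366 kb upstream (filamin C, an actin crosslinker). Of 22 glycolysis, glycogen and creatine genes 3 did, with the strongest at Ldha, lactate dehydrogenase A (5.96 and 4.87 at 2.475 kb). In the mitochondria and fatty acid list 4 of 25 did, led by the fatty acid carrier Fabp3 (4.38 and 3.30 at 9.165 kb). Per Mb of eligible sequence, of which the sarcomere genes had a median of 5.45 kb and the glycolytic ones 4.1 kb, these lists held 42.0, 42.8 and 33.5 members, against 30.4 over all genes. Of the sarcomere genes 18 had an open promoter, as did 21 of the glycolytic and 24 of the mitochondrial ones.

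Of the 24 myogenic factor genes, all with an open promoter, 5 had a member (20.8%, 9.24 to 40.5%), beside 12.8% of all genes. Mef2d had 3, the strongest with 9.26 and 8.41 at 3.912 kb, where CAGCTG, the clock E-box and the CREB motif were all present. Myod1 had 1 member at 5.134 kb with 1.72 and 1.48, below its promoter site at 6.54 and 6.10. Myf6 had 0.98 and 0.89 at 5.103 kb. No member was assigned to Myog, Myf5, Mef2a or Mef2c.

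At the neuromuscular junction, 5 of 14 genes had a member, and CAGCTG was in 3 of the 5. Over all muscle lists CAGCTG was in 25 of 111 members (22.5%), near the 19.8% of all members and 20.8% of all shared sites. Of the 5 junction members, that of Chrna1 was the strongest, with 5.07 and 4.44 at 4.432 kb, above its promoter site (1.64 and 1.27). It lay near the start of Chrna1os, an antisense gene, and carried the CTCF core. Dok7, an activator of the synaptic kinase MuSK, had 4.35 and 3.49 at 1.506 kb, Chrne 1.96 and 2.64, and Musk 1.75 and 1.95. These last 3 each held CAGCTG. Of the dystrophin complex 6 of 14 genes had a member. Sgca, alpha-sarcoglycan, had 12.8 and 14.3 at 2.803 kb, above the 3.39 and 3.52 of its promoter, and had the higher value in replicate 2.

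Clock genes had members at 9 of 19 (47.4%, 27.3 to 68.3%). The Nr1d1 site 8.187 kb upstream had 24.0 and 18.9, close to its promoter site (25.4 and 19.7), and 2 further members had 4.68 and 3.87 at 6.967 kb and 1.92 and 1.74 at 1.705 kb. Bhlhe40, a clock repressor, had 16.2 and 12.6 at 1.109 kb. Per1 had 5.17 and 4.88 at 2.687 kb. Arntl, which encodes BMAL1, had 1.94 and 1.31 at 5.635 kb, far below its promoter (14.9 and 13.9). Per2 had an open promoter and no member.

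Genes of the other cells of whole muscle were represented as well. In bulk tissue, a site open in few cells and a site partly open in many cannot be told apart. Of 16 genes of fibroblasts and fibro-adipogenic progenitors 7 had a member, 20 members in all: Col1a1 reached 16.4 and 12.8 at 7.234 kb, and Pdgfra had 5, the strongest with 6.60 and 5.86 at 1.002 kb. That Pdgfra site was just past the 1 kb limit of promoter sites, and the Pdgfra promoter site had 5.29 and 5.52. Egfl7, an endothelial gene, had 5 members of 1.10 to 2.43 in replicate 1. Notch3, a receptor gene of pericytes and satellite cells, had 8.50 and 6.97 at 6.528 kb, above its promoter's 2.70 and 2.73. Heyl, a Notch target, had 4 members of 2.34 to 3.76 in replicate 1, and 1 of them had CAGCTG 3 times. The macrophage receptor gene Cx3cr1 had 3.71 and 3.78 at 3.471 kb, with CAGCTG and no shared promoter site. Most genes of these lists had no member. Members stood at 3 of 13 macrophage, 4 of 18 endothelial, 4 of 12 pericyte and smooth muscle, and 5 of 19 satellite cell genes. For Schwann cell, adipocyte, erythroid and tendon genes the counts were 4 of 12, 3 of 12, 1 of 12 and 1 of 10. All are read beside 12.8% of all genes.

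Lists for tissues other than muscle had some members too. Hepatocyte, keratinocyte, cardiac and lymphocyte lists had a member at 1 gene each, of 14, 13, 15 and 12. The pluripotency list had 5 of 12 (41.7%, 19.3 to 68.0%): Sox2 with 2.61 and 2.87 at 2.495 kb, where the CTCF core was present, and Klf4, Lin28a, Nanog and Esrrb with 0.71 to 2.89 in replicate 1. The neuron list had 3 of 14 (21.4%, 7.57 to 47.6%). Its strongest member was at Camk2a, a kinase gene, with 9.76 and 8.07 at 3.548 kb. The Camk2a promoter was open too, at 5.14 and 4.22. Housekeeping genes had a member at 4 of 16. Assignment went by the nearest start and is no evidence that a site acts on that gene.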

How the data were processed

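The authors deposited, 4 lists for each of the 2 libraries, all on mm10 per the labels: strict peaks, permissive peaks, footprints and single bases. The authors gave each peak a signal. The depth is unknown. For the signal's scaling, the aligner, the callers and the number of reads, nothing is stated in the sources used here. In the base lists the authors gave q-values, all below 0.05, and every deposited footprint carries 1 level, a fraction of 0.01 that was not used further. The strict lists held 87558 and 79562 peaks. Classes used GENCODE vM21 on GRCm38 (starts of protein-coding transcripts). RefSeq mRNA starts served as a second annotation. Eligible sequence was measured on a grid of points 50 bp apart. No peak lay past a chromosome end of the reference.

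Of the 29 motifs, those not spelled elsewhere include TEAD (ACATTCC), FOX (TGTTTAC), RUNX (TGTGGTT), the GATA factor motif (AGATAAG), NFY (CCAATCA), the TATA box (TATAAAA), MEF3 (TCAGGTTTC), CREB (TGACGTCA), the glucocorticoid and androgen receptors (ACANNNTGT), ERR (TCAAGGTCA), the PAR bZIP factors (TTATGTAA), PU.1 (GAGGAAGT), part of the REST motif (TTCAGCACC), STAT (TTCCNGGAA), and YY1 (AAGATGGCG). MEF2, NRF1, EBF, the SRF CArG box, CTCF, NFI, HNF1 and the ROR and REV-ERB receptors had longer or degenerate motifs. The GGGCGGG of SP/KLF and all others were sought on both strands, and matches may overlap. A match had to fit the motif in full, so near matches, those to the CTCF core included, were not counted or put in capitals. Motif counts in the text use 150 bp, while the capitals of printed sequences cover the whole site. The named genes are the 10 strongest members, the 5 highest and 5 lowest replicate ratios, the strongest member of each gene of a fixed set of 36 and of each gene list, and the 10 genes with most members. Other members of listed genes, and Mef2d, Dok7, Chrne, Musk, Bhlhe40, Per1, Pdgfra, Egfl7, Heyl and Fkbp5, were chosen after their values were seen. Members and lists were chosen with earlier results of these data known. With 1 group of 2 libraries, no test was made. Intervals are Wilson, 95%. Python 3.11.15, pandas 2.3.3, NumPy 2.4.6, SciPy 1.17.1, pysam 0.24.0 and samtools 1.23.1 were used. The site, class, motif and footprint steps were tested on simulated data. Some sites that the naming rule covers are not reported here.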

Additional observations from a re-analysis of the deposited data

How the results depend on the processing

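The number of members was 3744. It was 5635 with the permissive lists and 2194 with the stronger 50% of strict peaks, and it stayed within 1.5 times under all other settings, 4239 without replicate 1 and 4820 without replicate 2 included. The mean of the library medians of signal, 1.98, moved to 1.32 with the permissive lists and 3.01 with the stronger peaks. With a single library it was 1.65 to 1.66. The CAGCTG share moved from 19.8% to 24.0% in 200 bp windows and 23.6% over whole sites, both of them longer stretches. The share with a footprint of both libraries (95.8%) became 88.9% with the permissive lists, 98.6% with the stronger peaks, 96.5% with 50% reciprocal overlap, 98.7% for a footprint of either library and 92.6% for overlapping footprints only. It was 93.1 to 94.8% with a single library's sites and footprints. Other definitions of a start, of intergenic or of the near edge (2 kb), 2 of them chosen after seeing the data (starts of all transcripts of protein-coding genes, 3708 members, and distance from RefSeq mRNA starts, 3200), gave 3007 to 3789 members and left the median signal within 1 SD of the libraries' medians and both shares within their intervals. No paired analysis was possible because there is 1 group. Read depth is not given, so which weak sites it hides is unknown.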
